A study of Petunia x hybrida with 9 samples.

Results

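Phenylalanine ammonia-lyase, the enzyme that takes the amino group from phenylalanine and leaves cinnamic acid, was represented by 17 of the 94534 loci in the expression table. A locus was taken as a member when the description of its best tomato protein named phenylalanine ammonia-lyase, without regard to its level. RNA came from corollas of Petunia x hybrida cultivar Mitchell in 9 libraries, 3 from each of 3 groups. The first group carries the label A4 and the second the label A9, and both are described as overexpressors of PhADT, in the series title of a site-directed mutant of it; PhADT is the petunia arogenate dehydratase that makes phenylalanine. The third is wild type. A mutation label, R353A, stands on samples of all 3 groups, wild type included, so it does not separate them. Each sample pooled 8 or more corollas harvested at 20 h on post-anthesis day 2, and the greenhouse was lit between 6 AM and 9 PM. The promoter of the transgene and the number of independent plants behind a line are unstated in the sources used here.

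Phenylalanine ammonia-lyase opens the phenylpropanoid pathway in plants, ahead of the steps that lead to lignin, flavonoids and coumaroyl esters. In petunia petals the same substrate also feeds the scent compounds: benzenoids derive from cinnamic acid, and phenylacetaldehyde is made from phenylalanine by a decarboxylase without passing through ammonia-lyase. Flowering plants usually hold several ammonia-lyase genes with closely similar proteins, and the active enzyme is a tetramer.

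Loci described as prephenate or arogenate dehydratase were examined as a check of the labels, and the libraries labelled A4 went against theirs. Of 15 measured, none was called higher and 7 lower labelled A4 against wild type. In A9, 5 were called higher and 2 lower. Some of these loci may be parts of the same gene, which was not tested, so the counts are not counts of genes. The dehydratase locus XLOC_018765, chosen because earlier values had shown it high in A9, averaged 0.0290 ± 0.0290 FPKM in the libraries labelled A4, 95.3 ± 13.8 FPKM in A9 and 0.0130 ± 0.0225 FPKM in wild type (SD, n = 3 each; FPKM counts fragments per kilobase of locus, scaled to the fragments of the library). Because this locus was chosen on A9, its level there is no check of the A9 label. Which locus holds the transgene was not shown. The group labelled A4 had no raised dehydratase locus and is therefore called the libraries labelled A4 throughout. Depth, recovered from the steps between low values, lay between 30550000 and 43150000 fragments per library. Between 98.8% and 99.3% of loci were above 0 in the libraries of both lines, against 97.8% to 98.0% in wild type. Photosynthesis genes, used as markers of green tissue, summed to between 885 and 1266 FPKM in the libraries labelled A4, between 687 and 986 FPKM in A9 and between 1580.3 and 1913 FPKM in wild type. Of 96 measured loci of that list, 46 were called lower and 9 higher labelled A4, and 50 lower and none higher in A9, against wild type. Pollen and anther genes summed to between 236 and 269 FPKM labelled A4, between 264 and 296 FPKM in A9 and between 278 and 352 FPKM in wild type, with 10 of 32 loci lower and 4 higher labelled A4 and 8 lower and 8 higher in A9. Stress genes summed to between 1139 and 1509 FPKM labelled A4, between 1060.3 and 1196 FPKM in A9 and between 1781 and 1884 FPKM in wild type, with 21 of 59 loci lower and 6 higher labelled A4 and 17 lower and 4 higher in A9. Of all 53284 loci tested against wild type, 16.6% were called lower and 15.6% higher labelled A4. The shares in A9 were 10.3% lower and 8.98% higher. Whether the differences in these lists bear on the values below was not tested. In RNA from whole corollas fewer cells of a type and less RNA per cell cannot be told apart.

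The 17 loci matched 4 tomato proteins. Of them, 4 matched Solyc05g056170.2.1, 6 matched Solyc10g086180.1.1, 5 matched Solyc09g007920.2.1 and 2 matched Solyc09g007900.2.1. Identity to the tomato protein lay between 78.95% and 96.22%, with a median of 93.63%. A match gives the nearest tomato relative and does not name a petunia gene.

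All 17 loci came from 1 assembled cluster of 20 loci, split into 6 subcomponents, and most covered only a stretch of the protein. For Solyc05g056170.2.1, XLOC_082237 matched residues 1 to 111, XLOC_082240 residues 95 to 289, XLOC_082241 residues 133 to 289 and XLOC_082243 residues 257 to 709. XLOC_082237, XLOC_082240 and XLOC_082243 follow each other with short overlaps, XLOC_082241 lies wholly within the stretch of XLOC_082240, and no single locus spans the protein. For Solyc10g086180.1.1, XLOC_082242 matched residues 6 to 25, XLOC_082244 residues 18 to 233, XLOC_082252 residues 129 to 472 and XLOC_082248 residues 130 to 472. XLOC_082238 and XLOC_082239 took over at residue 382 and reached residues 682 and 711. The loci of the proteins named for tomato chromosome 9 (Solyc09) instead overlapped over most of their length. XLOC_082247, XLOC_082251 and XLOC_082255 each covered residues 8 to 721 of Solyc09g007920.2.1, XLOC_082249 residues 8 to 482 and XLOC_082254 residues 137 to 721. XLOC_082246 and XLOC_082256 both covered residues 8 to 482 of Solyc09g007900.2.1.

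**Figure D1:**
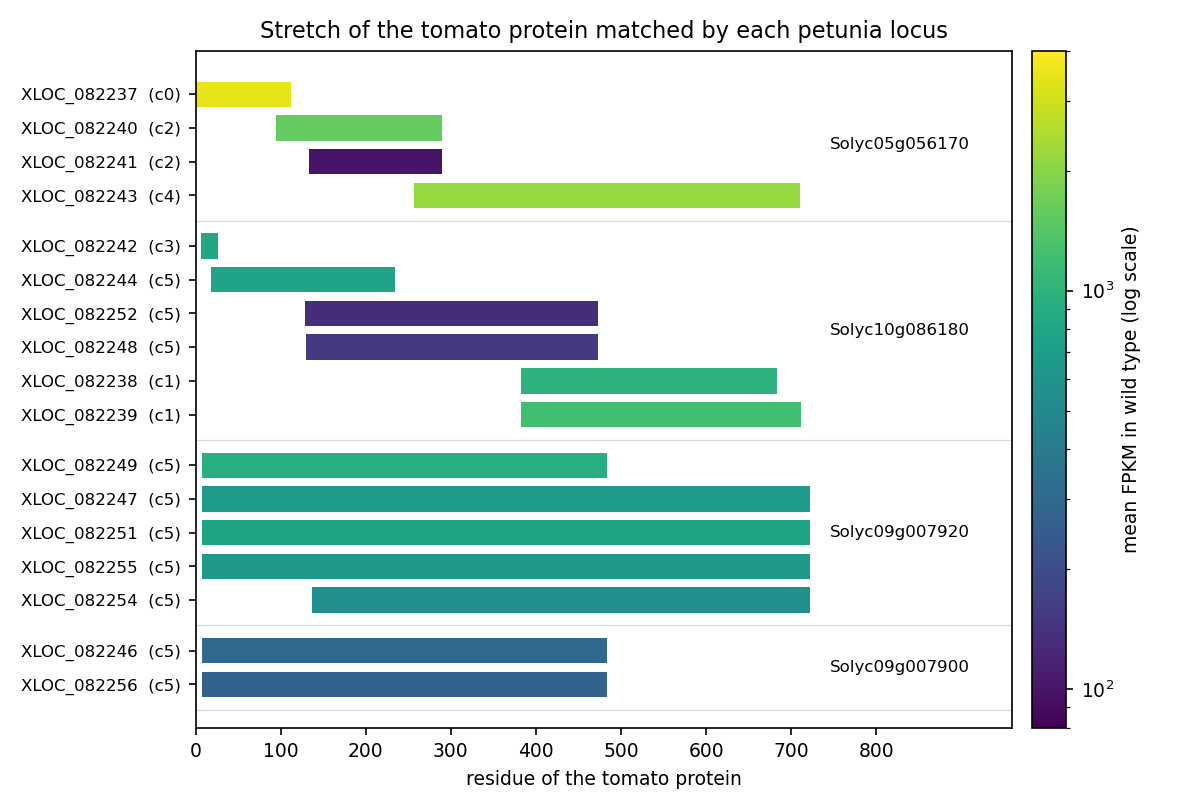
Stretch of the tomato protein matched by each of the 17 loci, in residues, coloured by the mean FPKM in wild type on a log scale, with the assembled subcomponent in brackets. The loci of Solyc05g056170 cover residues 1 to 709 between them, with XLOC_082241 inside the stretch of XLOC_082240, whereas those of Solyc09g007920 and Solyc09g007900 overlap over most of their length.

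The loci also differed in how much of their sequence was ammonia-lyase. The match took up 95% or more of XLOC_082238, XLOC_082240, XLOC_082244 and XLOC_082249, but 18.1% of the 2603 bases of XLOC_082241. In 8 of the 10 members of subcomponent c5 the match began only after base 1000, between base 1066 and base 1867. XLOC_082247 and XLOC_082251 differed in that start by 260 bases, and so did XLOC_082256 and XLOC_082246. The same 260 bases separated XLOC_082245 and XLOC_082253, loci of the cluster that match a 2-oxoglutarate-dependent dioxygenase and no ammonia-lyase. Loci that share sequence share fragments, so their levels are uncertain, and calls at several loci of a protein are not separate observations of a change.

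Ammonia-lyase RNA was abundant in all 3 groups. The members held 1.42 ± 0.187% of all FPKM in the libraries labelled A4, 1.92 ± 0.197% in A9 and 1.89 ± 0.258% in wild type (SD, n = 3 each). XLOC_082237 ranked 11 among all loci by its mean over the 9 libraries, and 12 members were among the 200 highest. All 17 passed the filter for testing, a 9-library mean of 1 FPKM or more, and 16 averaged 100 FPKM or more. At loci of 500 bases or more a member value rested on 4.78e+03 to 2.13e+05 fragments.

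Because the loci overlap, a sum of FPKM counts some stretches more than once, and a mean weighted by locus length was used to order the proteins. The weight is the whole locus, also where sequence lies outside the match, so the order depends on locus lengths and the overlap remains. In Solyc10g086180.1.1 the long loci XLOC_082248 and XLOC_082252, with 41.9% and 35.6% of their bases in the match, lower the mean. They averaged 153 and 129 FPKM in wild type. In wild type it was 1320.1 ± 238 FPKM for Solyc05g056170.2.1, 685 ± 95.5 FPKM for Solyc09g007920.2.1, 460.0 ± 84.3 FPKM for Solyc10g086180.1.1 and 284 ± 29.2 FPKM for Solyc09g007900.2.1 (SD, n = 3). In A9 the order was the same, at 1406 ± 190.1, 633 ± 34.6, 395 ± 39.8 and 265 ± 18.8 FPKM. Neighbours in this order did not overlap between libraries in A9 or in wild type. In the libraries labelled A4 the means were 980.1 ± 112, 471 ± 15.4, 281 ± 98.0 and 183 ± 23.0 FPKM, and there Solyc10g086180.1.1, at 174 to 366 FPKM, overlapped Solyc09g007900.2.1, at 167 to 209.6 FPKM. The order of the middle pair depends on which loci are counted. Among the loci that match over nearly their whole length, XLOC_082238 of Solyc10g086180.1.1 stood at 847 to 1209 FPKM in wild type. XLOC_082244 of the same protein stood at 670 to 878 FPKM there. XLOC_082249 of Solyc09g007920.2.1, at 813 to 1000.4 FPKM, had a mean between theirs.

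**Figure D2:**
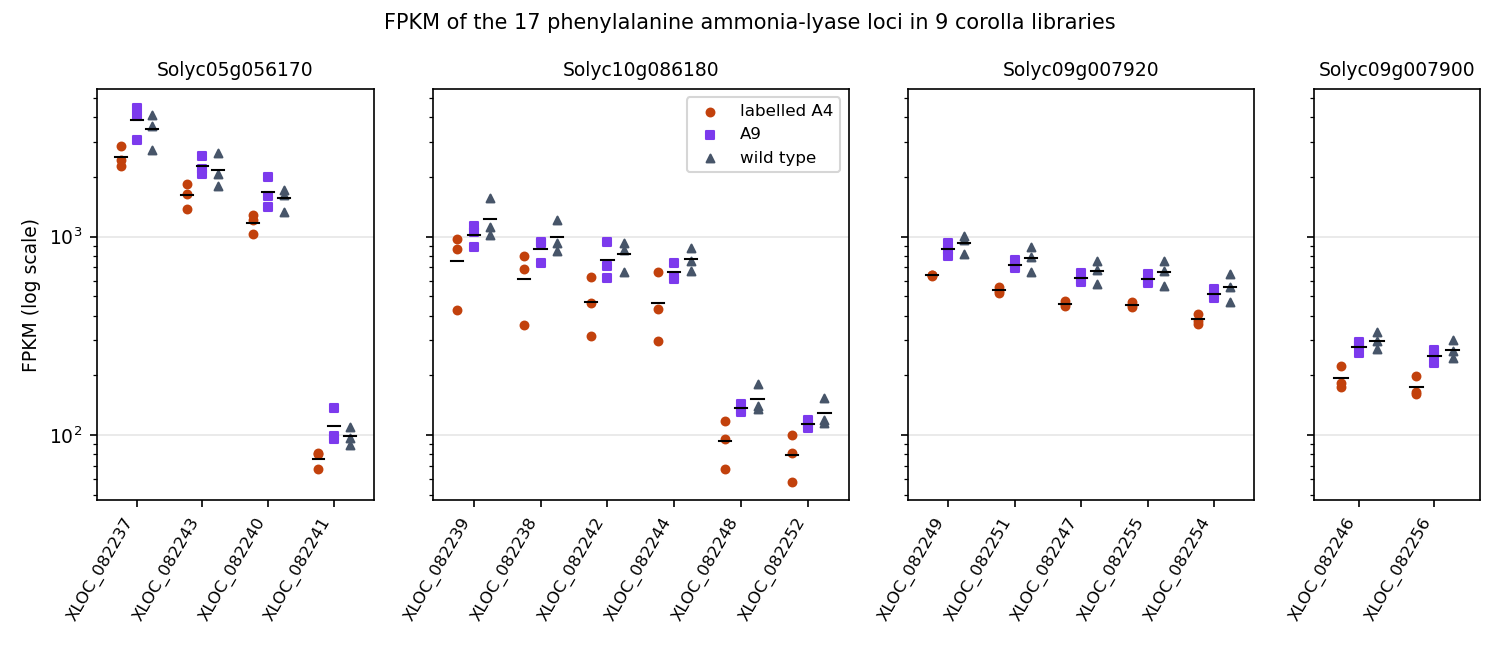
FPKM of each of the 17 loci in each library, on a log scale, grouped by tomato protein, with a bar at the mean of each group of 3 libraries. The libraries labelled A4 lie below wild type without overlap at 15 loci, and A9 overlaps wild type at all 17.

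The first comparison set the libraries labelled A4 beside wild type. Ammonia-lyase RNA was lower in them, with falls at both chromosome 9 proteins, a fall at Solyc10g086180.1.1 that rested on uneven libraries, and no call at Solyc05g056170.2.1, the most abundant. By limma on log2(FPKM + 1), with Benjamini-Hochberg adjustment over all loci tested, 11 of the 17 loci fell and none rose. Of all 53284 loci tested, 16.6% were called lower and 15.6% higher. Abundant loci leaned downward as a class: among 995 loci averaging 100 FPKM or more, 35% were called lower, at a median log2 change of -0.22. The 17 members had log2 changes between -0.85 and -0.37, with a median of -0.53, a level of 0.690 times wild type, against a median of -0.04 over all loci tested. Every library labelled A4 lay below every wild-type library at 15 members, and that was so at 26.3% of all loci tested. The plain sum over the members was 9026, 11979 and 11066 FPKM in the libraries labelled A4, against 13281, 18022 and 15330.3 FPKM in wild type, a log2 ratio of group means of -0.54, given without a test.

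The 5 loci of Solyc09g007920.2.1 gave the tightest values. XLOC_082249 had 643, 638 and 634 FPKM in the libraries labelled A4, against 813, 1000.4 and 959 FPKM in wild type. XLOC_082251 had 521, 529.7 and 556 FPKM labelled A4, against 664, 884 and 792 FPKM in wild type. The libraries labelled A4 lay close together and below wild type without overlap at both. XLOC_082247 had 447, 458 and 475 FPKM labelled A4, against 575, 757 and 677 FPKM in wild type. XLOC_082255, at 444, 449.6 and 469.5 FPKM labelled A4 and 565, 753 and 671 FPKM in wild type, gave nearly the same numbers as XLOC_082247, whose stretch it shares. XLOC_082254 was somewhat lower, at 364, 377 and 409 FPKM labelled A4 and 469.6, 646 and 554 FPKM in wild type. All 5 fell by 0.53 on the log2 scale, with adjusted p between 0.00449 and 0.0105 by limma. Summed per protein, Solyc09g007920.2.1 averaged 2472 ± 64.5 FPKM labelled A4 and 3594 ± 479.7 FPKM in wild type (SD, n = 3 each), a log2 change of -0.53 (SE 0.114, limma adjusted p = 0.00591). After quantile normalization none of the 5 loci was called, with log2 changes of -0.28 to -0.21 and adjusted p of 0.104 to 0.131, nor was the sum (-0.26, adjusted p = 0.0523).

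Solyc09g007900.2.1 was the least abundant of the 4 proteins by the length-weighted mean, and its sum had the lowest adjusted p of the 4. XLOC_082246 had 174, 223 and 184 FPKM in the libraries labelled A4, against 270.4, 331 and 297 FPKM in wild type. XLOC_082256 had 161, 197 and 165 FPKM labelled A4, against 244, 299.9 and 265 FPKM in wild type. Neither overlapped between the groups, and both fell by 0.63 on the log2 scale (limma adjusted p = 0.00451 and 0.00388). These 2 loci kept their call under every alternative tried. The protein's sum was 368 ± 46.2 FPKM labelled A4 and 569 ± 58.4 FPKM in wild type (SD, n = 3 each), a log2 change of -0.63 (SE 0.115, limma adjusted p = 0.00266).

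At Solyc10g086180.1.1, 4 of 6 loci fell, by 0.71 to 0.85 on the log2 scale, and the libraries labelled A4 were uneven. XLOC_082238 had 360.5, 795 and 686 FPKM in them, against 847, 1209 and 932 FPKM in wild type. XLOC_082239 had 427, 968 and 867 FPKM labelled A4, against 1017, 1556 and 1122 FPKM in wild type. Replicate 1 of the libraries labelled A4 stood far below the other two at both loci, and neither was called (limma adjusted p = 0.0659 and 0.0772; 95% intervals of the log2 change -1.39 to -0.13 and -1.44 to -0.10). XLOC_082244 had 298, 663 and 429 FPKM labelled A4, against 670.2, 878 and 756 FPKM in wild type. XLOC_082242 had 314, 628 and 461 FPKM labelled A4, against 931, 859 and 665 FPKM in wild type. Both fell, by 0.80 and 0.85 on the log2 scale (limma adjusted p = 0.0403 and 0.0344), although XLOC_082242 is only 262 bases long. The recovery of depth from low values fitted best with 276 to 292 bases subtracted from locus lengths. That inferred length exceeds XLOC_082242, so that its FPKM is uncertain. XLOC_082244 kept its call in 1 of 9 fits that left out a library, that without replicate 2 labelled A4, and lost it in a fit of 2 groups (adjusted p = 0.0739) and after quantile normalization (0.145); without replicate 1 labelled A4 its change was -0.52. XLOC_082242 was called in 5 of those 9 fits, not in those without replicate 1 or 3 labelled A4 (0.0880 and 0.0803) or without wild-type replicate 1 or 2 (0.104 and 0.0897), and not after quantile normalization (0.142).

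XLOC_082248 and XLOC_082252, whose matches are nearly the same stretch, had lower levels. XLOC_082248 had 67.8, 118 and 95.7 FPKM in the libraries labelled A4, against 136, 181 and 141 FPKM in wild type. XLOC_082252 had 58.3, 100.02 and 81.0 FPKM labelled A4, against 115, 154 and 119.5 FPKM in wild type. Both fell without overlap, by 0.72 and 0.71 on the log2 scale (limma adjusted p = 0.0204 and 0.0201), but neither was called without wild-type replicate 2 (0.0680 and 0.0666). The protein's sum was 2473 ± 882 FPKM labelled A4 and 4096 ± 642 FPKM in wild type (SD, n = 3 each), a log2 change of -0.79 (SE 0.257, limma adjusted p = 0.0371). Without replicate 1 of the libraries labelled A4 the change of the sum was -0.47, a move of over 1.5 times, with an adjusted p of 0.0673. It also missed the threshold without replicate 3 labelled A4 (adjusted p = 0.0654) or without wild-type replicate 1, 2 or 3 (0.0629, 0.113 and 0.0676), in a fit of 2 groups (0.0575), after quantile normalization (0.111) or from the highest locus alone (0.0736).

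Solyc05g056170.2.1, the most abundant protein, had no called locus. XLOC_082237 had 2272, 2848 and 2436 FPKM in the libraries labelled A4, against 2741, 4072 and 3597 FPKM in wild type. XLOC_082243 had 1379, 1628 and 1830.2 FPKM labelled A4, against 1805, 2626 and 2059 FPKM in wild type. Each of these overlapped between the groups at its highest library labelled A4 and wild-type replicate 1. XLOC_082240 had 1029, 1278 and 1208 FPKM labelled A4, against 1329, 1706 and 1626 FPKM in wild type. XLOC_082241 had 67.4, 80.9 and 80.1 FPKM labelled A4, against 89.4, 110.3 and 96.6 FPKM in wild type. Neither of these overlapped, but all 4 loci missed the threshold, with log2 changes of -0.45 to -0.37 and limma adjusted p between 0.0753 and 0.0926. The protein's sum was 5378 ± 565 FPKM labelled A4 and 7286 ± 1278 FPKM in wild type (SD, n = 3 each), a log2 change of -0.43 (95% interval -0.82 to -0.04, limma adjusted p = 0.0747). Of the fits that left out 1 library, the one without wild-type replicate 1 called it (log2 change -0.56, adjusted p = 0.0386). Its interval covers the changes estimated for both chromosome 9 proteins, so a smaller fall at Solyc05g056170.2.1 was not shown.

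By protein, 3 of 4 thus fell, and of all 14288 tomato proteins tested 19.7% were called lower. Median-ratio scaling of the libraries left the count of loci at 11. Quantile normalization, which gives every library the same distribution of values, left 3 loci called, XLOC_082246, XLOC_082256 and XLOC_082252, and 1 protein, Solyc09g007900.2.1, with all 17 log2 changes still negative, and under it 189 of the 995 abundant loci were called lower and 194 higher. Leaving out wild-type replicate 2, the highest library at 13 of the 17 members, left 7 called loci, those of both chromosome 9 proteins.

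**Figure D3:**
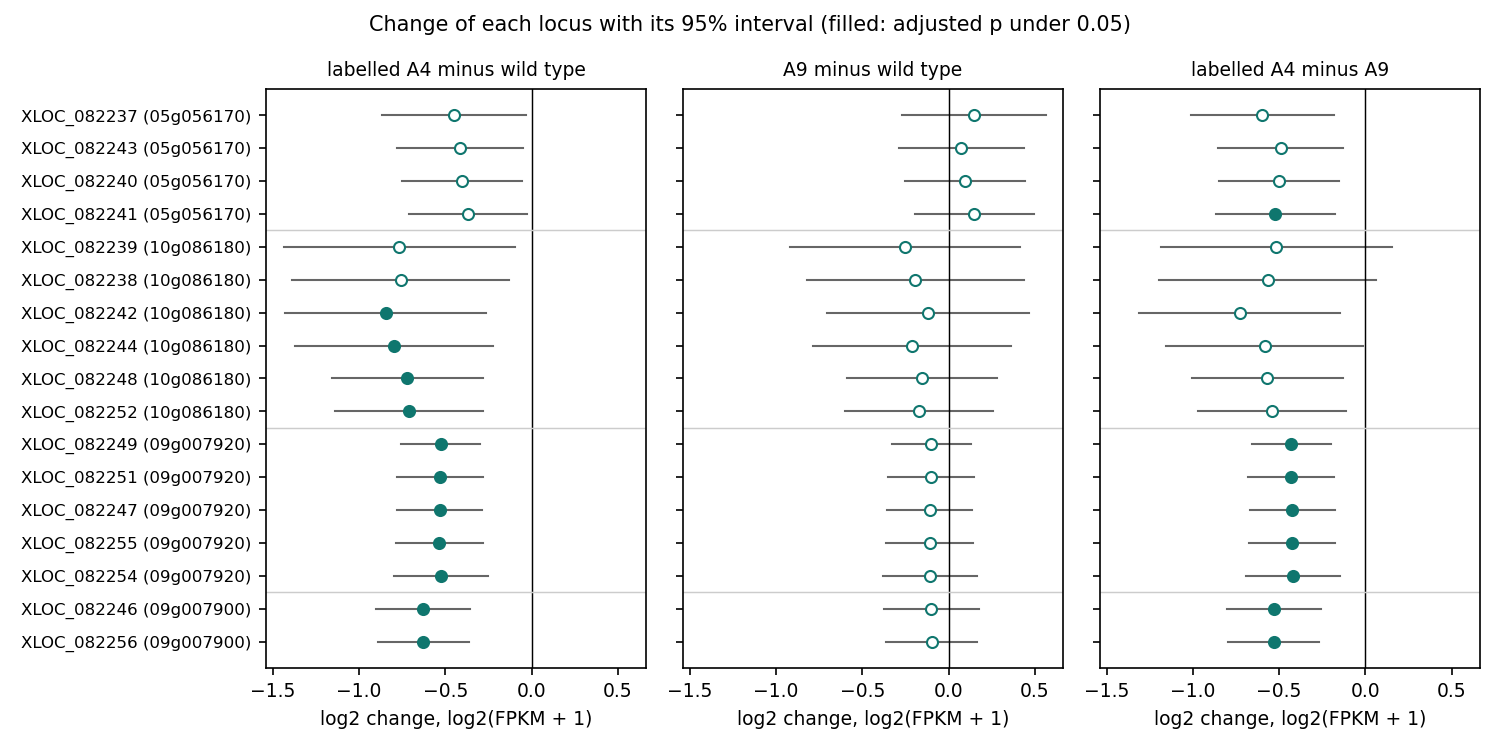
Log2 change of each of the 17 loci with its 95% interval from limma, for the libraries labelled A4 minus wild type, A9 minus wild type and the libraries labelled A4 minus A9; filled points have an adjusted p under 0.05. The changes of the libraries labelled A4 are all below 0 in both of their panels, and those of A9 against wild type lie around 0.

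The second comparison set A9, the line with the raised dehydratase, beside wild type. No ammonia-lyase locus was called, and no member had an unadjusted p under 0.05. Of all 53284 loci tested in this comparison by limma, 19.2% were called, 10.3% lower and 8.98% higher. The members' log2 changes lay between -0.25 and 0.15, with a median of -0.11, and their 95% intervals lay within -0.92 and 0.56. None of the 17 separated the groups, whereas 38.3% of all loci tested did so in either direction. No protein was called, against 26.7% of the 14288 tested. A p that misses the threshold does not show equal levels, and the intervals for Solyc10g086180.1.1 were the widest.

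XLOC_082237 had 4022, 4449.9 and 3046 FPKM in A9, against 2741, 4072 and 3597 FPKM in wild type. XLOC_082243 had 2186, 2531 and 2063 FPKM in A9, against 1805, 2626 and 2059 FPKM in wild type. XLOC_082240 had 1592, 2001 and 1415 FPKM in A9, against 1329, 1706 and 1626 FPKM in wild type. At all 3 of these loci of Solyc05g056170.2.1 the groups overlapped, and XLOC_082241 was likewise at 99.5, 137 and 96.2 FPKM in A9 and 89.4, 110.3 and 96.6 FPKM in wild type. The protein's sum was 7879 ± 1249.7 FPKM in A9 and 7286 ± 1278 FPKM in wild type (SD, n = 3 each), a log2 difference of 0.12 (95% interval -0.27 to 0.50, limma adjusted p = 0.655).

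The other proteins had negative differences in A9, also within their spread. XLOC_082249 of Solyc09g007920.2.1 had 859.7, 929 and 795 FPKM in A9, against 813, 1000.4 and 959 FPKM in wild type. XLOC_082246 of Solyc09g007900.2.1 had 296, 283 and 258 FPKM in A9, against 270.4, 331 and 297 FPKM in wild type. XLOC_082239 of Solyc10g086180.1.1 had 1051, 885 and 1129 FPKM in A9, against 1017, 1556 and 1122 FPKM in wild type. Wild-type replicate 2 was the highest library at each of these 3 loci. The log2 differences of the sums were -0.10 for Solyc09g007920.2.1 (95% interval -0.36 to 0.15, limma adjusted p = 0.533), -0.10 for Solyc09g007900.2.1 (-0.36 to 0.16, adjusted p = 0.563) and -0.20 for Solyc10g086180.1.1 (-0.78 to 0.38, adjusted p = 0.604). The plain sum over all members was 15647, 16288 and 13942 FPKM in A9, a log2 ratio of -0.02 to wild type.

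The third comparison set the libraries labelled A4 beside A9, which shares its samples with the comparisons above. Of the 17 loci, 8 were lower in the libraries labelled A4 by limma: the 5 of Solyc09g007920.2.1, both of Solyc09g007900.2.1 and XLOC_082241 of Solyc05g056170.2.1. Over all loci tested, 8.13% were called lower and 9.91% higher, and among the abundant loci 19.4% were called lower. All 17 log2 changes were negative, from -0.73 to -0.42 with a median of -0.52, and 13 members had every library labelled A4 below every A9 library, as did 18.6% of all loci tested. The 4 exceptions were XLOC_082238, XLOC_082239, XLOC_082242 and XLOC_082244, where replicate 2 labelled A4 lay above A9 replicate 2.

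XLOC_082249 had 643, 638 and 634 FPKM in the libraries labelled A4, against 859.7, 929 and 795 FPKM in A9. XLOC_082251 had 521, 529.7 and 556 FPKM labelled A4, against 708, 764 and 694 FPKM in A9. XLOC_082247 had 447, 458 and 475 FPKM labelled A4, against 603, 658 and 593 FPKM in A9. In all 3 the libraries of each line kept together and apart from the other line. XLOC_082255 had 600.2, 648 and 584 FPKM and XLOC_082254 had 489, 543 and 508 FPKM in A9, also above all libraries labelled A4. XLOC_082256 had 161, 197 and 165 FPKM labelled A4, against 267, 256 and 231 FPKM in A9, again without overlap. The sums differed by -0.43 on the log2 scale for Solyc09g007920.2.1 (SE 0.114, limma adjusted p = 0.0257) and by -0.53 for Solyc09g007900.2.1 (SE 0.115, adjusted p = 0.0113). The call for Solyc09g007920.2.1 held in 4 of 9 fits that left out a library, not in those without replicate 1, 2 or 3 labelled A4 (0.0581, 0.0739 and 0.0662) or without A9 replicate 1 or 2 (0.0573 and 0.0593), and that for Solyc09g007900.2.1 held in all 9.

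Solyc05g056170.2.1 was lower in the libraries labelled A4 as a sum, at 5378 ± 565 FPKM, against 7879 ± 1249.7 FPKM in A9 (SD, n = 3 each; log2 change -0.54, SE 0.171, limma adjusted p = 0.0461). That call held in 3 of 9 fits that left out a library (adjusted p 0.0365 to 0.118 over the 9), those without A9 replicate 3 or wild-type replicate 1 or 2, and was lost after quantile normalization (0.0531), without the filter (0.0663), in a fit of 2 groups (0.0611) and from the highest locus alone (0.0519). Its loci XLOC_082237, XLOC_082240 and XLOC_082243 missed the threshold in the main fit, at adjusted p of 0.0539, 0.0541 and 0.0658. They passed it with a replicate block, at 0.0270, 0.0217 and 0.0341, but the block was not the only such setting. Without it, XLOC_082237 also passed after median-ratio scaling (0.0498) and XLOC_082243 after quantile normalization (0.0444). XLOC_082237 and XLOC_082240 passed with a filter of 5 FPKM (0.0496 and 0.0493) and with 5 instead of 1 added to the FPKM (0.0483 and 0.04875). Solyc10g086180.1.1, at 2473 ± 882 FPKM labelled A4 and 3558 ± 427 FPKM in A9, was not called (log2 change -0.59, 95% interval -1.17 to -0.00486, adjusted p = 0.124), and its change was -0.27 without replicate 1 labelled A4. In A9 XLOC_082238 had 929.8, 734 and 935 FPKM, XLOC_082244 had 738, 613 and 633 FPKM and XLOC_082242 had 942, 618 and 715 FPKM. XLOC_082248 had 144, 130.2 and 135 FPKM and XLOC_082252 had 119, 108 and 114 FPKM in A9, both above every library labelled A4. By protein, 3 of 4 were lower in the libraries labelled A4, against 11.3% of the 14288 tested. The count of called loci depended on the libraries kept, although all 17 log2 changes stayed negative. Without replicate 3 labelled A4, or without A9 replicate 1, none of the 17 was called. Without A9 replicate 2, replicate 1 labelled A4 or wild-type replicate 3 the count was 2, 3 and 5. Calls over all loci also dropped, from 9614 to 4912 without replicate 3 labelled A4 and 5944 without A9 replicate 1.

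The proteins did not move in step within the libraries. Replicate 1 of the libraries labelled A4 was the lowest of all 9 libraries at 16 of the 17 loci. At the 6 loci of Solyc10g086180.1.1 it held between 46.6% and 64.4% of the mean of replicates 2 and 3 labelled A4, but between 92.6% and 101% at Solyc09g007920.2.1. Between these lay Solyc05g056170.2.1, with 79.7% to 86.0%, and Solyc09g007900.2.1, with 85.6% to 88.7%. The ratio of summed FPKM of Solyc10g086180.1.1 to Solyc05g056170.2.1 was 0.322, 0.561 and 0.472 labelled A4, 0.497, 0.339 and 0.553 in A9 and 0.623, 0.568 and 0.506 in wild type. Replicate 1 labelled A4 and A9 replicate 2 gave the low values, and the groups overlapped. The ratio of Solyc05g056170.2.1 to Solyc09g007920.2.1 varied less, at 1.96, 2.38 and 2.18 labelled A4, 2.42, 2.57 and 2.09 in A9 and 1.93, 2.11 and 2.02 in wild type.

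**Figure D4:**
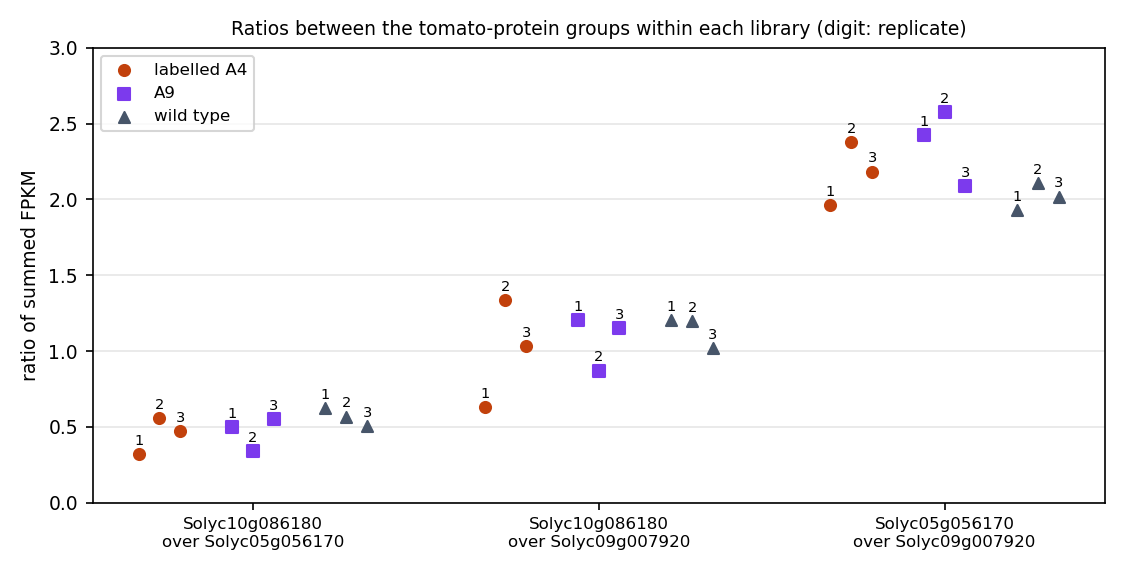
Ratios of summed FPKM between 3 pairs of tomato proteins within each of the 9 libraries, on a linear axis from 0, with the replicate number at each point. Solyc10g086180 is low relative to both other proteins in replicate 1 labelled A4 and in A9 replicate 2, and the groups overlap in all 3 ratios.

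Of the 3 other loci of the assembled cluster, XLOC_082245 and XLOC_082253 followed another pattern. Both match residues 1 to 341 of the same dioxygenase, so they are not separate observations. XLOC_082250, with means of 0.388 FPKM labelled A4, 1.32 FPKM in A9 and 0.744 FPKM in wild type, fell below the filter and was not tested. XLOC_082245, matched to the dioxygenase, had 44.6, 28.2 and 33.9 FPKM in A9, against 14.2, 19.2 and 24.5 FPKM in wild type, and rose (log2 change 0.85, limma adjusted p = 0.0452; 0.0506 with the replicate block). XLOC_082253 had 44.8, 28.7 and 33.6 FPKM in A9, against 16.1, 19.6 and 24.4 FPKM in wild type, and also rose (log2 change 0.80, adjusted p = 0.0398). In the libraries labelled A4 the same loci had 31.8, 18.9 and 20.5 FPKM and 32.1, 20.4 and 20.4 FPKM and were not called against wild type (adjusted p = 0.433 and 0.431). The groups of A9 and wild type did not overlap at either locus, but both calls were lost without A9 replicate 1 (adjusted p = 0.129 for XLOC_082245 and 0.114 for XLOC_082253), without A9 replicate 3 (0.0993 and 0.0861) and without wild-type replicate 1 (0.140 and 0.128) or 2 (0.0974 and 0.0934). XLOC_082245 was also not called without replicate 2 or 3 labelled A4 (0.0503 and 0.0604).

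Steps on either side of ammonia-lyase were examined from lists of protein names. The counts of each list below stand beside the shares of all loci tested against wild type. These were 16.6% lower and 15.6% higher labelled A4, and 10.3% lower and 8.98% higher in A9. Whether a list departed from these shares was not tested. Upstream, of 15 measured loci described as prephenate or arogenate dehydratase, which supplies phenylalanine, 7 fell and none rose in the libraries labelled A4, while 5 rose and 2 fell in A9, both against wild type. The 5 that rose were XLOC_018765, named in the check of labels, and XLOC_018769, XLOC_018770, XLOC_018771 and XLOC_018772. Their log2 changes in A9 were 4.09 to 6.56. The 7 that fell labelled A4 were XLOC_031410, XLOC_031411, XLOC_031413, XLOC_031414, XLOC_053180, XLOC_053181 and XLOC_053182. Those whose names begin with XLOC_0314 averaged only 1.65 to 7.43 FPKM in wild type. Whether loci among these 5 or among these 7 are parts of the same gene was not tested, so they are not counted as separate genes. The most abundant of the 15 loci, XLOC_053181, had 1095, 1028 and 1192 FPKM labelled A4, 1469, 1759 and 1573 FPKM in A9 and 1552, 1979 and 1634 FPKM in wild type. It fell in the libraries labelled A4 (log2 change -0.63, limma adjusted p = 0.00394) and was not called in A9 (-0.10, 95% interval -0.37 to 0.17). Its level in the libraries labelled A4 lay below all other libraries, as at the chromosome 9 ammonia-lyase loci.

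Beside ammonia-lyase, decarboxylases of aromatic amino acids compete for phenylalanine. Of 8 measured loci, 3 fell and 2 rose labelled A4, and 2 fell and 1 rose in A9, against wild type. XLOC_046369 had 743, 764 and 689.7 FPKM labelled A4, 1261, 1119.8 and 1101 FPKM in A9 and 1406, 1535 and 1759.6 FPKM in wild type. The 3 groups did not overlap at this locus. It fell in the libraries labelled A4 (log2 change -1.09, limma adjusted p = 0.000109) and in A9 (log2 change -0.43, adjusted p = 0.0222). The call in A9 was lost after quantile normalization (0.153), in a fit of 2 groups (0.0512) and without A9 replicate 2 or 3 or wild-type replicate 2 or 3 (0.0545 to 0.0771).

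Downstream, of 34 measured 4-coumarate CoA ligase loci, which activate coumaric acid, 9 fell and 5 rose labelled A4, and 3 fell and 1 rose in A9, against wild type. The most abundant, XLOC_077283, had 2388, 2653 and 2162 FPKM labelled A4, 2913, 2882 and 1949.6 FPKM in A9 and 2651, 2641 and 2803 FPKM in wild type. The groups overlapped, and the log2 difference from wild type was -0.17 labelled A4 (95% interval -0.53 to 0.18) and -0.09 in A9 (-0.44 to 0.27). Of 95 measured loci for monolignol steps toward lignin, 37 fell and 9 rose labelled A4, and 17 fell and 5 rose in A9. Among them XLOC_053395, a caffeoyl-CoA O-methyltransferase, had 4698, 4890.1 and 3933 FPKM labelled A4, 6205, 6563 and 5273 FPKM in A9 and 5913, 7194 and 6621 FPKM in wild type. It fell in the libraries labelled A4 (log2 change -0.55, limma adjusted p = 0.0104). After quantile normalization its log2 change was -3.6e-15. That method gives equal ranks the same value, so it cannot show a fall at a locus that keeps its rank.

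Chalcone synthase, which opens the flavonoid branch, was scarce in the corollas of this white-flowered cultivar. Of its 3 measured loci, 2 rose and none fell labelled A4, with the same counts in A9. The most abundant, XLOC_042714, had 8.29, 6.55 and 9.70 FPKM labelled A4, 8.75, 6.94 and 9.97 FPKM in A9 and 6.72, 3.77 and 6.34 FPKM in wild type. It was not called in either line (limma adjusted p = 0.107 labelled A4 and 0.102 in A9), and was called in both with a replicate block (0.00833 labelled A4 and 0.00839 in A9).

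Kelch-type F-box proteins include, in Arabidopsis, factors that mark ammonia-lyase protein for breakdown. Of 30 measured loci of that description, which also takes in other kelch F-box proteins, 14 fell and 9 rose labelled A4, and 9 fell and 6 rose in A9, against wild type. XLOC_048802, the most abundant, had 21.4, 52.2 and 21.5 FPKM labelled A4, 27.9, 16.7 and 35.9 FPKM in A9 and 88.3, 152 and 132 FPKM in wild type. It fell in both lines without overlap, with a log2 change of -2.03 labelled A4 (limma adjusted p = 0.00458) and of -2.19 in A9 (adjusted p = 0.00531). A search of the descriptions for histidine, tyrosine, aspartate and argininosuccinate lyases found 1 locus, the argininosuccinate lyase XLOC_004778. It stood between 1.63 and 2.27 FPKM in all libraries and was not called. Other related lyases were not searched for. No locus was described as cinnamate 4-hydroxylase.

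**Figure D5:**
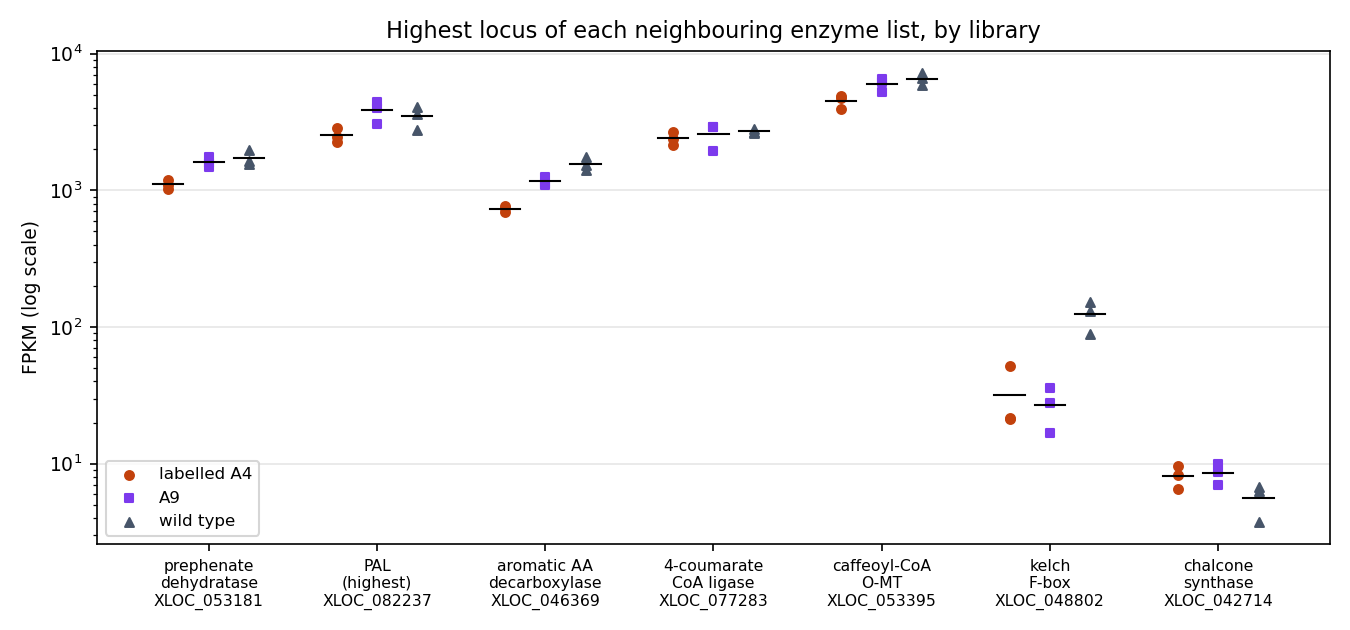
FPKM of the highest locus of each list of neighbouring enzymes and of the highest ammonia-lyase locus, by library on a log scale, with a bar at the mean of each group of 3 libraries. The decarboxylase XLOC_046369 and the F-box locus XLOC_048802 are below wild type in both lines, whereas the ammonia-lyase XLOC_082237 in A9 overlaps wild type.

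The loci whose pattern over the 9 libraries came closest to that of XLOC_082237 were ranked by the mean absolute difference of log2(FPKM + 1), centred per locus, among 9924 loci outside the family. These loci averaged 5 FPKM or more, had a named tomato match (e-value at most 1e-10) and had group means at least 0.5 times as far apart as those of XLOC_082237. The nearest 5 were a vacuolar iron transporter, XLOC_041578 (mean difference 0.0893), a serine hydroxymethyltransferase, XLOC_068136 (0.0968), a translation initiation factor 4B, XLOC_055384 (0.107), a carotenoid cleavage dioxygenase 1A, XLOC_036337 (0.112), and an adenosylhomocysteinase, XLOC_082158 (0.114). XLOC_068136 had 136, 181 and 146 FPKM labelled A4, 212, 228 and 167 FPKM in A9 and 176, 227 and 201 FPKM in wild type, with the low replicate 1 labelled A4 and low A9 replicate 3 seen at XLOC_082237. Within the family the same distance ran from 0.0666 for XLOC_082240 to 0.324 for XLOC_082239 over the 16 fellow members of XLOC_082237. The 5 loci named above were kept as the nearest of 9924, whereas the 16 members were not selected by distance. That selection alone can place the 5 loci nearer, so no comparison of them with the family is drawn. The measure describes 9 libraries in which the groups differ as a whole, and no test was made of it.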

How the data were processed

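The authors deposited FPKM per locus, a column for each library. FastQC 0.11.2 and Bowtie2 2.2.6 are named in the submitters' processing notes; how contigs were assembled, how FPKM were computed and whether libraries were scaled to each other is not given in the sources used here. For each locus a second deposited table holds the top tomato match with percent identity, aligned stretch, bit score and e-value (0.001 or less), per the file headers; the score entered only an alternative sum. Sample titles gave the groups. Replicates are not stated to be separate plants, so p-values measure only how these samples spread, which may be a technical spread. The members, the lists of neighbouring genes, the named loci and the tests were chosen with earlier results of these data known.

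Loci averaging 1 FPKM or more (53284 of 94534) were tested on log2(FPKM + 1), which understates changes of low loci, with limma 3.58.1 in R 4.3.3: 1 fit of 3 group means, a trended variance prior, and Benjamini-Hochberg adjusted p under 0.05 over all loci. FPKM summed per tomato protein were tested likewise. The fit was tested on simulated data. Depth was recovered from low values of loci of 700 to 2000 bases, of which 100% of those up to 4.5 fragments lay within 0.1 of a whole number. No count test was run, since the values are not counts. Named were members averaging 100 FPKM or more, the highest of each protein, called members, and the highest locus of each list. Same-numbered libraries deviated together across loci for A9 and wild type (correlations 0.248, 0.344 and 0.104) and for A4 and A9 (0.240, 0.261 and 0.249). For A4 and wild type (0.229, 0.192 and -0.125) they did not in every pair. The main tests used no pairing. A replicate block was fitted only as an alternative, in all 3 comparisons. Its ground is this check alone, which did not hold for A4 and wild type. No sequence was printed, because none was in the files used here.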

Additional observations from a re-analysis of the deposited data

Results flagged for a closer look

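The change from wild type differed between the lines for 3 of the 4 tomato proteins, by the contrast of the libraries labelled A4 with A9, which is the difference of their changes because both share the wild-type libraries. Of all 14288 tomato proteins tested, 25.5% were called in that contrast, 11.3% lower and 14.2% higher labelled A4. For Solyc05g056170.2.1 that difference was -0.544 on the log2 scale (limma adjusted p = 0.0461), with changes from wild type of -0.43 labelled A4 and 0.12 in A9. For Solyc09g007900.2.1 it was -0.5322 (adjusted p = 0.0113), with changes of -0.63 labelled A4 and -0.10 in A9. For Solyc09g007920.2.1 it was -0.4266 (adjusted p = 0.0257), with changes of -0.53 labelled A4 and -0.10 in A9. Fits that left out 1 library kept this call in 3 of 9 for Solyc05g056170.2.1, in 9 of 9 for Solyc09g007900.2.1 and in 4 of 9 for Solyc09g007920.2.1. That of Solyc05g056170.2.1 was also lost after quantile normalization (adjusted p = 0.0531), without the filter on low values (0.0663), in a fit of 2 groups (0.0611) and from the highest locus alone (0.0519). In all 3 proteins every library labelled A4 lay below every A9 library. Among single loci, 18.6% of all tested did so, and the share among proteins was not computed. The raised dehydratase locus of A9, XLOC_018765, was near 0 both in the libraries labelled A4 (mean 0.0290 FPKM) and in wild type (mean 0.0130 FPKM). Its part in the difference was not tested.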

How the results depend on the processing

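All 17 log2 changes of the libraries labelled A4, against wild type and against A9, stayed negative under every setting tried, and no locus was called in A9 against wild type under any. Against wild type, the 11 loci called labelled A4 became 3 after quantile normalization and the 3 proteins 1; leaving out 1 library gave 7 to 13 loci. Against A9, leaving out 1 library gave 0 to 8 loci and 1 to 3 proteins. The replicate block was an alternative to the unpaired main fit. With it 14 loci and 4 proteins were called labelled A4 against wild type, where the check of pairing did not hold. The counts were 0 and 0 in A9 against wild type, and 11 and 3 labelled A4 against A9. Of the 11 loci, 7 were called in every leave-one-out fit, and 0 of the 8 against A9.

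Small A9 differences from wild type changed sign without a test result. After quantile normalization they were 0.0224 for XLOC_082238, 0.141 for XLOC_082242, 0.10 for XLOC_082247, XLOC_082251 and XLOC_082255, 0.14 for XLOC_082249, 0.0456 for XLOC_082254, 0.10 for Solyc09g007920.2.1 and 0.0301 for XLOC_053181. XLOC_018765 labelled A4 became -0.17, and XLOC_053395 labelled A4 against A9 became 0.17. Leaving out 1 library gave -0.0133 to 0.305 for XLOC_082237, -0.0417 to 0.208 for XLOC_082240, -0.00866 to 0.242 for XLOC_082241, -0.285 to 0.0184 for XLOC_082242, -0.0469 to 0.224 for XLOC_082243, -0.223 to 0.00663 for XLOC_082254, -0.0209 to 0.236 for Solyc05g056170.2.1, -0.172 to 0.00379 for XLOC_053181 and -0.19 to 0.10 for XLOC_077283. The cause was not tested. The share of abundant loci called lower and the alternatives of the neighbouring loci were added after the data were seen. The values give no split by batch, and loci of 1 cluster share fragments, which limits the levels per locus.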
